A study of Mus musculus with 6 samples.

Results

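Oxidative phosphorylation is carried out by 5 enzyme complexes of the inner mitochondrial membrane, and the nuclear genes for their subunits were compared between 6 and 16 months of age in mouse cortex. Genes were chosen by name and annotation: protein-coding genes whose mouse symbol begins with Nduf (followed by a, b, c, s or v and a digit), Uqcr, Cox4 to Cox8 or Atp5, or is Sdha, Sdhb, Sdhc or Sdhd. Of 38355 listed genes, 84 met this rule, with 37 assigned to complex I, 4 to complex II, 8 to complex III, 18 to complex IV and 17 to complex V by their prefix. The samples were whole cortical tissue from C57BL/6 mice, an inbred strain with no transgene in this experiment, at 6 months (n = 3) or 16 months (n = 3). The housing text among the labels gives the younger age as 3 months, whereas titles, characteristics and the study's methods give 6 months, which is used here. The study describes the samples of each age as separate brains, while the labels do not state the number of animals in a sample.

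Complex I passes electrons from NADH to ubiquinone, complex II feeds them in from succinate, complex III hands them to cytochrome c and complex IV passes them to oxygen. Complexes I, III and IV pump protons, and complex V, the ATP synthase, uses the proton gradient to make ATP. Each complex except complex II also holds subunits made from the mitochondrial genome, and neurons depend strongly on this pathway. The mitochondrially encoded subunits were not analysed here.

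Gene totals lay between 29797253 and 46519280 counts per sample, and summed markers of neurons (6897 to 8021 counts per 1000000, CPM) and of excitatory neurons (4156 to 5014 CPM) were high in all 6 samples, as the tissue label requires. The 16-month replicates 1 and 2 stood apart in opposite directions: gene by gene, the departure from the 16-month mean correlated with GC content at r = 0.60 in replicate 1 and r = -0.59 in replicate 2, across 16904 genes that are not independent. Some markers of other regions and cells also moved with age. Over all tested genes, 0.783% were called higher and 0.888% lower at 16 months, and 12.2% had older samples all above the younger. In the list for thalamus 4 of 5 genes were called higher at 16 months, as were 2 of 4 for dentate gyrus, 1 of 3 for blood, 1 of 4 for choroid plexus and 1 of 6 for oligodendrocytes. Summed blood markers lay between 21.7 and 24.9 CPM at 6 months and between 36.3 and 41.0 CPM at 16 months, with Hbb-bs, a beta globin, the called gene. In the astrocyte list Gfap was called lower, but 4 of its 6 genes had positive values, with older samples all above the younger and a median log2 fold change of 0.18. In the list for parvalbumin interneurons Pvalb was called lower, and the 8 genes had a median of -0.02 with 3 positive and 5 negative. The part of these shifts in the results below was not tested.

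Of the 84 genes, 82 passed the filter on low counts and were tested, and 4 were called lower and 0 higher at 16 months by edgeR's quasi-likelihood test at a Benjamini-Hochberg adjusted p of 0.05. These were Ndufa6 of complex I, Uqcrh of complex III, Cox6c of complex IV and Atp5j2 of complex V, with changes of -15.9%, -17.7%, -17.6% and -17.3%. All 4 encode small accessory subunits, which surround the catalytic centres. Of the 82 tested genes, 67 lay outside the list of 15 core subunits and 50 had transcripts under 1000 bases, as had all 4. Across all 17120 tested genes, 0.888% were called lower and 0.783% higher. At an unadjusted p under 0.05, 33 of the 82 genes were lower and 0 higher, against 8.88% and 8.57% of all tested genes.

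Uqcrh encodes the hinge protein of complex III, which lies close to the docking site of cytochrome c. Its normalized level was 164.8, 171.1 and 165.3 CPM at 6 months and 134.1, 141.0 and 137.3 CPM at 16 months. Every older sample lay below every younger one, with a log2 fold change of -0.28 ± 0.05 (SE, n = 3 per age; edgeR quasi-likelihood test, Benjamini-Hochberg adjusted p = 0.025). Atp5j2 encodes the f subunit in the membrane part of ATP synthase. It was measured at 109.8, 108.8 and 103.8 CPM at 6 months and at 89.4, 88.1 and 89.1 CPM at 16 months. The 3 older samples were nearly equal and all lower, with a log2 fold change of -0.27 ± 0.05 (edgeR, adjusted p = 0.0266).

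Cox6c, a membrane subunit of cytochrome c oxidase, stood at 190.2, 198.4 and 188.9 CPM at 6 months and at 150.1, 165.9 and 160.0 CPM at 16 months. The groups lay apart, with the lowest value in 16-month replicate 1, and the log2 fold change was -0.28 ± 0.06 (edgeR, adjusted p = 0.0377). Exons of Cox6c overlap those of Vps13b, and the counting setting for strand is not given in the sources used here. Ndufa6 belongs to the arm of complex I that binds ubiquinone. Its values were 79.3, 74.9 and 75.8 CPM in the younger and 65.6, 63.2 and 64.6 CPM in the older samples. These groups were also apart, and the log2 fold change was -0.25 ± 0.05 (edgeR, adjusted p = 0.042). None of these 4 transcripts shared a stretch of at least 100 bases at 97% identity with another annotated gene, whereas 29 of the 84 genes did. Among those described below, the near-identical part of the transcript was 88.2% for Atp5g2, 75.7% for Ndufs3, 72.2% for Atp5l, 42.0% for Cox5a, 31.2% for Cox7a2l, 20.1% for Cox4i1 and nearly the same for Ndufb5, 11.1% for Atp5g1, 9.5% for Ndufs1 and 5.2% for Atp5a1, whose values are therefore less certain. Ndufs1, Ndufs3, Cox4i1, Cox5a, Cox6a2 and Atp5a1, among others, overlap exons of another gene. For Ndufs1, Ndufb5, Cox4i1, Cox5a and Atp5a1 the near-identical match was to an overlapping gene itself, not to a separate copy.

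In the GRCm38 annotation, Uqcrh spans chr4:116066965-116075071, Atp5j2 chr5:145183698-145192062, Cox6c chr15:35925886-35938246 and Ndufa6 chr15:82350140-82354322, all on the minus strand. Values are for the whole gene, summed over its exons.

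**Figure D1:**
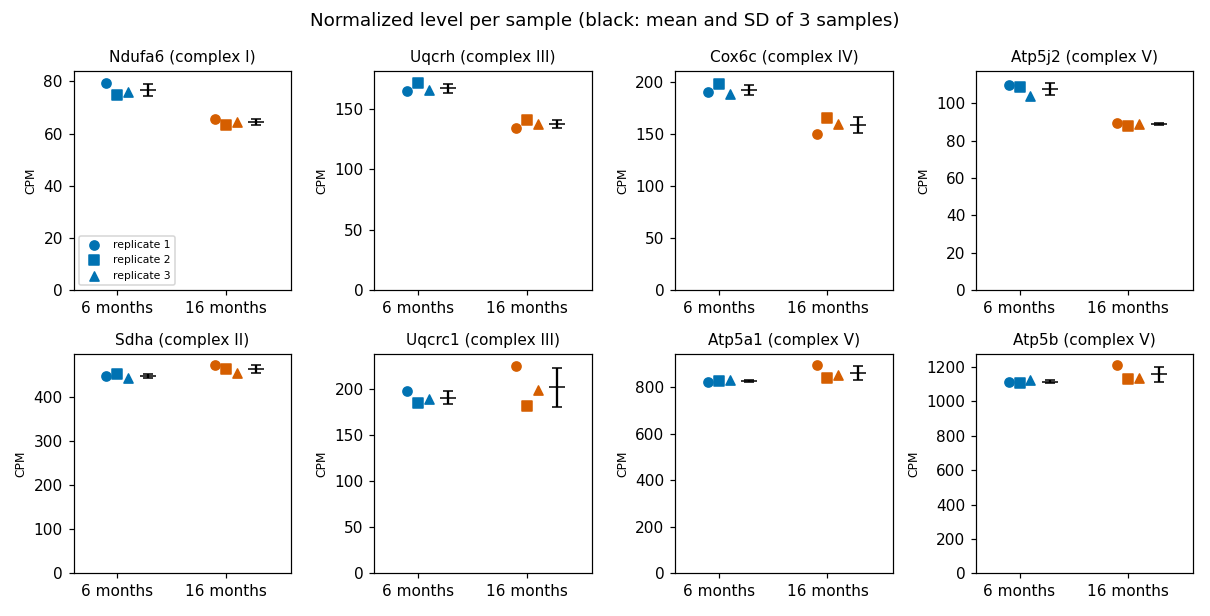
Normalized level (CPM, axis from 0) of 8 genes in each of the 6 samples, 3 per age, with the mean and SD in black. The upper row holds the 4 genes called lower, in which the ages do not overlap, and the lower row holds 4 core subunits. In the lower row, the older samples of Sdha, Atp5a1 and Atp5b lie slightly above the younger ones and Uqcrc1 overlaps. Of the 15 subunits listed as core, 3 have older samples all above the younger and 4, not drawn, have them all below.

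The 4 calls depended on single samples and on the treatment of transcript length. Leaving out 1 of the 6-month samples, whichever it was, or 16-month replicate 3 left 0 of the 82 genes called, whereas leaving out 16-month replicate 1 or 16-month replicate 2 gave 21 called lower in each case. Calls over all tested genes moved too: between 0.133% and 0.179% were called lower in the runs that left 0 of the subunit genes, and 2.79% and 6.4% without 16-month replicate 1 and replicate 2. In the runs that lost the 4 calls, their log2 fold changes stayed between -0.298 and -0.226. Offsets for GC content and length remove in each sample the median deviation of genes in 20 bins of each property. With both, the 4 genes were still lower, at log2 fold changes from -0.205 to -0.155. Their adjusted p lay between 0.000481 and 0.00873 (edgeR). Calls over all tested genes rose to 6.96% lower and 7.37% higher, from 0.888% and 0.783% without offsets. With length offsets alone 0 genes were called and the 4 had adjusted p between 0.0867 and 0.228 (edgeR), against 0.8% of all tested genes called lower and 0.736% higher. With GC offsets alone 33 were called lower and 0 higher, against 7.58% and 8.6% of all tested genes.

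Since the called genes are described by their expression, the DNA before them is shown for 3 of the 4, beside Atp5b as an abundant subunit that was not lower. The windows run from 170 bases before to 30 bases after the annotated start, on the gene's own strand, from the RefSeq promoter table of GRCm38.p6. Capitals mark letters of a searched motif. Cox6c had no entry.
Ndufa6, chr15:82354262-82354461, minus strand: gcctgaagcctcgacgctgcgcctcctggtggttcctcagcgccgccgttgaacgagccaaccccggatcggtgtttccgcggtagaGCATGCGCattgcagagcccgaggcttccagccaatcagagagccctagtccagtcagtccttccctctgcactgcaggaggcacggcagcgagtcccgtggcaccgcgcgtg
Uqcrh, chr4:116075041-116075240, minus strand: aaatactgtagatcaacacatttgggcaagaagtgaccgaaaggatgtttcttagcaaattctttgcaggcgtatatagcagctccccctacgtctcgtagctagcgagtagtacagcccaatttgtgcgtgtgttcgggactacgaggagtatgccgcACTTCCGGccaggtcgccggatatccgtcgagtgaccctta
Atp5j2, chr5:145191512-145191711, minus strand: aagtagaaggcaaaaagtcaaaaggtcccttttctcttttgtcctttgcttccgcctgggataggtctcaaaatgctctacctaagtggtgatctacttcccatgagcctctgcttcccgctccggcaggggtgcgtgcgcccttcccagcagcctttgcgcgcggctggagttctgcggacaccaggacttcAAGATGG
Atp5b, chr10:128083137-128083336, plus strand: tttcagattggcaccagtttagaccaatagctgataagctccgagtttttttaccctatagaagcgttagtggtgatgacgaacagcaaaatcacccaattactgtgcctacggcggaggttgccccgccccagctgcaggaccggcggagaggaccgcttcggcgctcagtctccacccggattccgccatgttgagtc

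The motifs were short cores of factors known to act at promoters of respiratory genes, searched on both strands in the full windows of 300 bases, which 66 of the 84 genes had. The NRF1 core GCGCATGC was present in 10 of these 66 (15.2%) and in 3.05% of all 27025 genes with a window. The YY1 core AAGATGGC was found in 9 (13.6%, against 3.19%), the ETS core CCGGAAGT, the motif of GABPA, in 5 (7.58%, against 4.31%) and the ERR core TCAAGGTCA in 2 (3.03%, against 0.466%). Ndufa6 held the NRF1 core, read as GCATGCGC on its strand, from position -83. Uqcrh held the ETS core as ACTTCCGG from position -11, and Atp5j2 the YY1 core from position 24, whose last base lies past the printed window. Atp5b held none of the 4. The 3 promoters thus carried 3 different motifs, and a match is a description of letters, not of a bound site. The motifs were not limited to lower genes. Uqcrc1 held the NRF1 core and Ndufs3 the ETS core, both with positive log2 fold changes, and Ndufs7, whose ages overlapped, held the YY1 core. A link between motifs and the age difference was not tested.

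Below the threshold the values leaned in 1 direction. The log2 fold change was negative for 64 of the 82 genes and positive for 18, with a median of -0.11, against 0.0014 over all tested genes. In percent the median change was -7.2 and the largest decrease -17.8, in Atp5l. All 3 older samples lay below all 3 younger ones for 32 genes (11.5% of all tested genes) and above them for 3 (12.2%). The ages overlapped for 47. Among all tested genes with transcripts under 1000 bases, 19.6% lay all below and 4.22% all above. In these bulk samples, fewer cells of a type and less RNA per cell cannot be told apart. Summed over all 84 genes, the level moved little, from between 9878 and 9911 CPM at 6 months to between 9323 and 9700 CPM at 16 months, and the pair of most abundant genes, Atp5b and Atp5a1, were among those that were not lower.

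**Figure D2:**
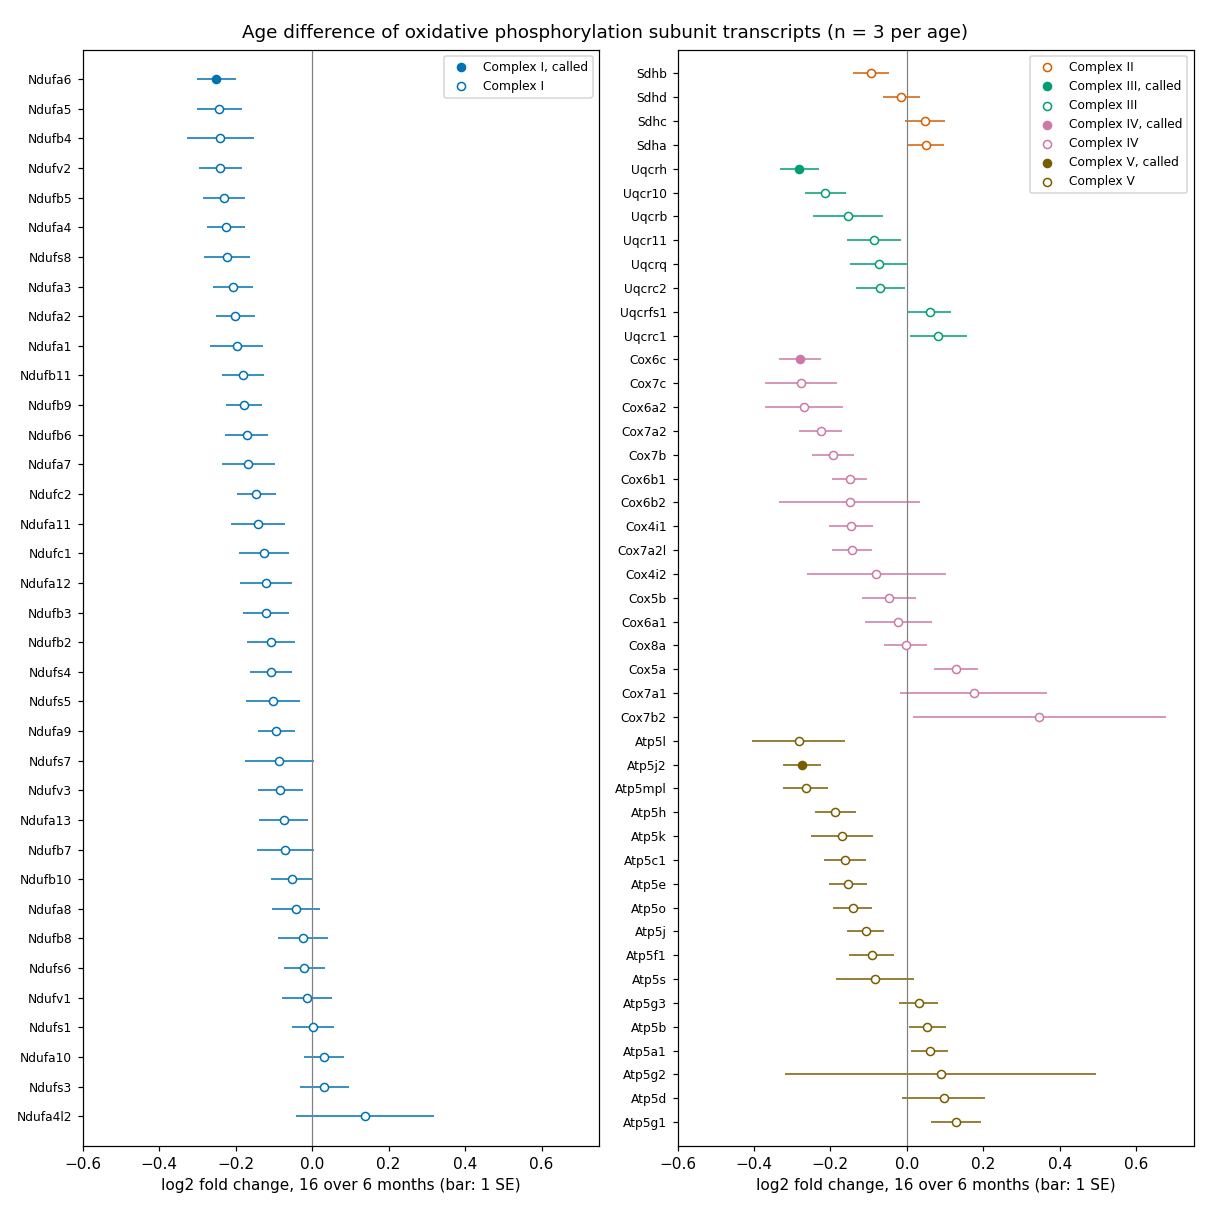
Log2 fold change (16 over 6 months, bar: 1 SE, n = 3 per age) of 81 of the tested genes, complex I on the left and complexes II to V on the right, ordered within each complex. Filled points are the 4 called genes, and 64 of the 81 points lie left of 0.

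Complex I had the largest number of genes, 32 of 37 with a negative value and a median log2 fold change of -0.12. The ages did not overlap for 15 of them, all lower in the older samples, against 11.5% of all tested genes lower in this way. Among all tested genes under 1000 bases the share was 19.6%. By position in complex I, the median was -0.10 for 8 genes of the NADH-binding (N) module, -0.13 for 8 of the ubiquinone-binding (Q) module and -0.12 for 20 listed as the membrane arm. The list of 20 leaves out Ndufa4 and holds its relative Ndufa4l2 by prefix only. The core subunits of complex I had values from near 0 to among the lowest. Ndufs1, the largest iron-sulfur subunit, was at 176.0, 187.1 and 180.7 CPM at 6 months and 172.3, 188.8 and 183.4 CPM at 16 months, fully overlapping, with a log2 fold change of 0.002 ± 0.055. Ndufv1, which binds NADH and flavin (-0.01 ± 0.07), and Ndufs3 (0.03 ± 0.07) were also near 0. The sign of Ndufs1 and Ndufv1 depended on the normalization, the offsets or the samples used.

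Ndufv2, an iron-sulfur subunit of the same module as Ndufv1, had one of the lowest values of complex I. Its level was 157.9, 161.1 and 162.8 CPM in the younger and 127.8, 144.5 and 135.6 CPM in the older samples, a difference without overlap but short of the threshold (log2 fold change -0.24 ± 0.06, edgeR adjusted p = 0.0749). Ndufs8, another iron-sulfur subunit, was at -0.22 ± 0.06 (adjusted p = 0.0994), and Ndufs7 at -0.09 ± 0.09, with 16-month values from 50.0 to 66.7 CPM that spanned the younger ones. Both Ndufv2 and Ndufs8 were called lower with GC and length offsets. The highest value in complex I was that of Ndufa4l2, the hypoxia-related relative of Ndufa4, at 0.14 ± 0.18, with levels between 1.00 and 1.43 CPM. Ndufa4, named for complex I but known as a subunit of complex IV, was measured at 230.9 ± 2.69 CPM (SD, n = 3) at 6 months and 197.6 ± 6.20 CPM at 16 months, with a log2 fold change of -0.23 ± 0.05 (edgeR, adjusted p = 0.0574); it is named here after its value was seen.

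Complex II, which also serves the tricarboxylic acid cycle and is wholly nuclear-encoded, had a median log2 fold change of 0.02. Sdha, the flavoprotein that oxidizes succinate, was at 448.0, 452.5 and 442.7 CPM at 6 months and 472.9, 463.0 and 455.6 CPM at 16 months. All older samples were above all younger ones, by a log2 fold change of 0.05 ± 0.05 that did not pass the test (edgeR, adjusted p = 0.621). Sdhb, its iron-sulfur partner, was at 128.9, 130.5 and 131.1 CPM and then at 125.0, 120.1 and 120.8 CPM, the only complex II gene with older samples all below the younger (-0.09 ± 0.05, adjusted p = 0.351). The membrane anchors Sdhc and Sdhd were at 0.05 ± 0.05 and -0.01 ± 0.05. Of all tested genes, 12.2% had older samples all above the younger and 11.5% all below.

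In complex III, 6 of 8 genes had negative values (median log2 fold change -0.08). In 2 of the 8, older samples all lay below the younger, against 11.5% of all tested genes and 19.6% of those under 1000 bases. Besides Uqcrh, the ages lay apart only for Uqcr10, a small accessory subunit, at 86.5 ± 3.22 CPM (SD, n = 3) and 74.6 ± 2.37 CPM (log2 fold change -0.21 ± 0.05, edgeR adjusted p = 0.0845). Uqcrc1, the large core protein, was highest at 0.08 ± 0.08. Its older samples were 224.4, 181.9 and 199.2 CPM, on both sides of the younger ones at 197.9, 184.8 and 189.1 CPM. Uqcrfs1, the Rieske iron-sulfur protein, was at 0.06 ± 0.06.

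Complex IV had the lowest median of the complexes without offsets, a log2 fold change of -0.15 over 16 tested genes, 13 of them negative. In 7 of the 16, older samples all lay below the younger, against 11.5% of all tested genes and 19.6% of those under 1000 bases. The catalytic subunits of complex IV are mitochondrially encoded, so the nuclear genes form the surrounding shell, several of them with isoforms for particular tissues. Cox4i1, the general form of subunit 4, was at 406.2, 401.3 and 398.4 CPM and then at 386.8, 338.9 and 364.0 CPM. The older samples were all lower and more spread, with a log2 fold change of -0.15 ± 0.06 (edgeR, adjusted p = 0.229; with GC and length offsets, adjusted p = 0.0247). Cox5a, which sits beside it, went the other way, from 78.2, 81.3 and 85.0 CPM to 93.4, 84.6 and 89.0 CPM. One older sample lay within the younger range, and the log2 fold change was 0.13 ± 0.06 (adjusted p = 0.293). With GC and length offsets Cox5a was called higher (0.23, edgeR adjusted p = 0.00893).

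The general isoforms of complex IV were far more abundant than their tissue-type partners at both ages. Per kilobase of transcript, the 6-month level was 525.4 CPM for Cox4i1 and 1.53 CPM for the lung form Cox4i2, and 380.4 CPM for Cox6a1 and 9.40 CPM for the heart and muscle form Cox6a2. Cox6a2, also known from parvalbumin interneurons, was measured at 5.82, 6.33 and 7.01 CPM at 6 months and at 5.67, 5.42 and 4.80 CPM at 16 months. The ages lay narrowly apart, and the log2 fold change of -0.27 ± 0.10 did not pass the test (edgeR, adjusted p = 0.214). In the list for parvalbumin interneurons Pvalb alone was called, at -1.21, and the 3 tested genes of the list for striated muscle had log2 fold changes from 0.03 to 0.21 with 0 called.

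Of the other isoform groups, Cox7a2 (-0.23 ± 0.06, adjusted p = 0.0821) and Cox7b (-0.19 ± 0.05, adjusted p = 0.106) had older samples all below the younger. So had Cox6b1 at -0.15 ± 0.05 and Cox7a2l, grouped with Cox7a2 by symbol only, at -0.14 ± 0.05. None of these passed edgeR's test with Benjamini-Hochberg adjustment. Cox6a1 at -0.02 ± 0.09 and Cox8a, the general form of subunit 8, at -0.003 ± 0.056 differed little. The rare forms Cox4i2, Cox6b2, Cox7a1 and Cox7b2 ranged from -0.15 to 0.35 with errors of 0.18 to 0.33, and a change of that size was not detectable at their depth. Cox8b and Cox8c failed the filter: Cox8b had between 3 and 11 counts per sample, and Cox8c was at 0 in all 6, which allows up to 3 counts in each.

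**Figure D3:**
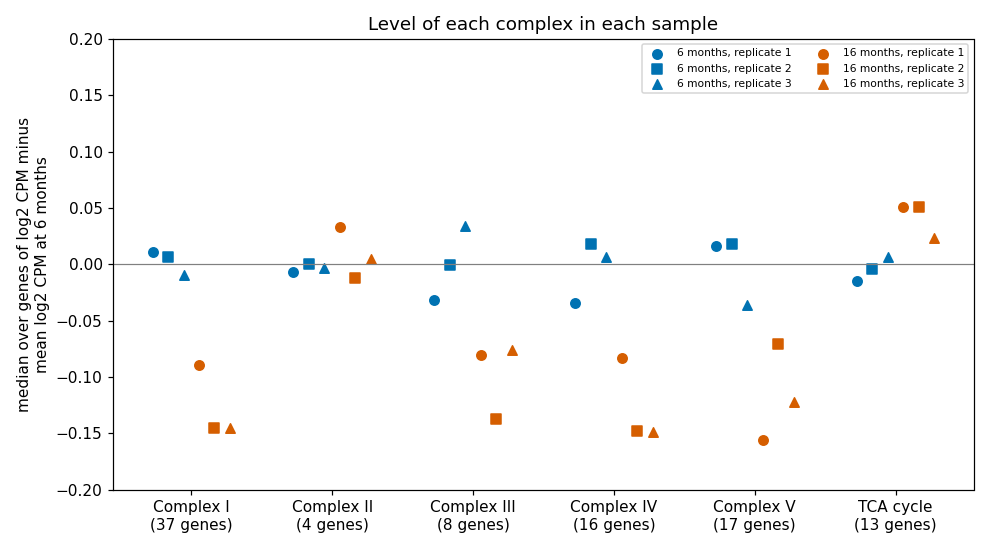
Median over the genes of each complex, and of the tricarboxylic acid (TCA) cycle list, of log2 CPM minus the mean at 6 months, for each of the 6 samples. The older samples lie between -0.07 and -0.16 in complexes I, III, IV and V, between -0.01 and 0.03 in complex II, and between 0.02 and 0.05 for the TCA cycle list.

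Within complex V, the catalytic head and the small membrane subunits are given in turn. Atp5b, the catalytic beta subunit and the most abundant gene per kilobase at 6 months (581.4 CPM), was at 1112.3, 1106.7 and 1123.0 CPM and then at 1208.2, 1126.8 and 1134.6 CPM. Atp5a1, the alpha subunit, was at 821.2, 827.0 and 827.9 CPM and then at 892.6, 836.8 and 851.6 CPM. In both, all older samples lay above the younger with replicate 1 farthest, by log2 fold changes of 0.05 ± 0.05 and 0.06 ± 0.05 that did not pass the test (edgeR, adjusted p = 0.618 and 0.567).

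For complex V, 7 of 17 genes had older samples all below the younger (all tested genes: 11.5%, those under 1000 bases: 19.6%). Complex V had a median log2 fold change of -0.11. Its lowest value, that of Atp5l (-0.28 ± 0.12, adjusted p = 0.268), rests on levels between 4.98 and 7.17 CPM from a transcript of which 72.2% is near-identical to another gene. Atp5mpl, a small membrane subunit named here after its value was seen, fell short of the threshold at -0.26 ± 0.06 (edgeR, adjusted p = 0.0613). The 3 genes for the same c-ring protein had positive values: Atp5g1 at 0.13 ± 0.07, Atp5g3, the highest by counts, at 0.03 ± 0.05, and Atp5g2, at most 0.381 CPM in any sample, at 0.09 ± 0.41. Since 88.2% of the Atp5g2 transcript is near-identical to other genes, its level cannot be compared with those of the other c-ring genes. With GC and length offsets Atp5g3 was called higher (0.13, edgeR adjusted p = 0.0191).

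Set side by side, 15 subunits listed as core, mostly those with cofactors or catalytic sites plus Cox4i1 and Cox5a, had a median log2 fold change of 0.003, with 9 positive and 6 negative. The other 67 tested genes had a median of -0.13, with 58 negative. Older samples lay all below the younger for 4 of the 15 and 28 of the 67, and all above for 3 and 0. Of all tested genes, 11.5% lay all below and 12.2% all above. The core transcripts were longer, with a median of 1623 bases against 731. Of the 82 genes, 50 had a principal transcript under 1000 bases, a limit set after the values were seen, and their median log2 fold change was -0.15 with 44 negative. Genes of 1000 bases or more had a median of -0.07. Among all tested genes, the 1564 under 1000 bases had a median of -0.09, with 67.1% negative and 19.6% with older samples all below the younger, and the 15340 longer ones had a median of 0.007. Across the 82 genes the log2 fold change correlated with log2 length at r = 0.34 and with GC content at r = 0.08, descriptions over genes from the same 6 libraries.

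**Figure D4:**
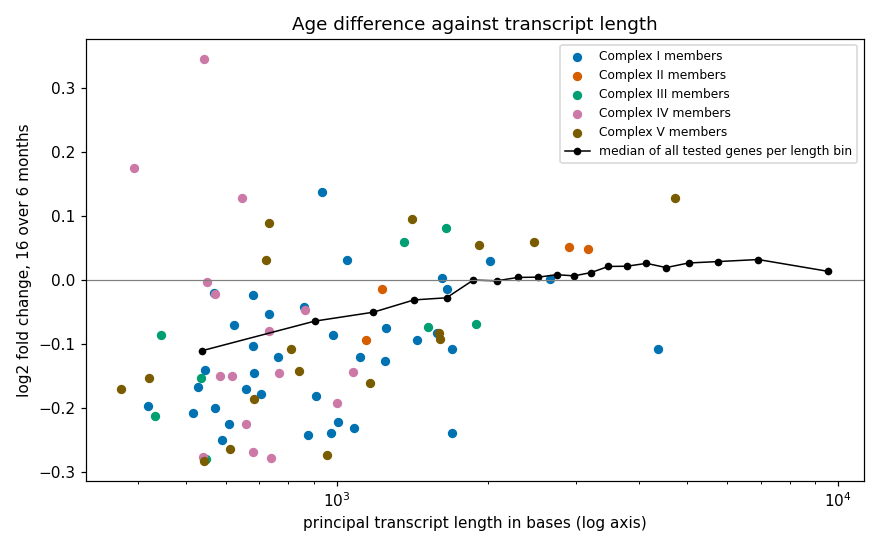
Log2 fold change of the 82 genes, coloured by complex, against the length of the principal transcript (log axis), with the median of all tested genes in 20 bins of length in black. The black line runs from -0.11 in the shortest bin to about 0.03 in the longer bins, and most short subunit transcripts lie below it.

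With both offsets the median over the 82 genes moved from -0.11 to -0.04, 13 genes were called lower (6.96% of all tested genes) and 2 higher (7.37%). The medians were then -0.05, 0.03, -0.01, -0.04 and -0.06 for complexes I to V. The 13 were the 4 genes above with Ndufa5, Ndufv2, Ndufb5, Ndufs8, Uqcr10, Cox4i1, Cox7a2, Atp5c1 and Atp5mpl, so that accessory and core subunits were both among them. The core list had a median of 0.02 with offsets and the other members -0.05, with 3 and 10 genes called lower and 1 and 1 higher. A shift of short transcripts was thus present across all genes, and its source was not tested.

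**Figure D5:**
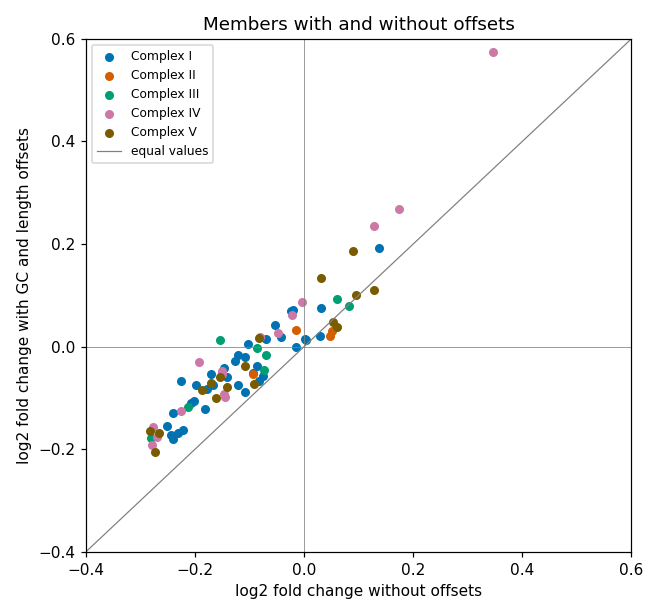
Log2 fold change of the 82 genes with GC and length offsets against that without, coloured by complex; the grey diagonal marks equal values. Most points with negative values lie above the diagonal, nearer to 0, and the median moves from -0.11 to -0.04.

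The variation among samples was also larger at 16 months: the SD of log2 CPM was higher than at 6 months for 56 of the 82 genes, with medians of 0.0735 and 0.0445. This was shared by all genes, of which 75.5% had the larger SD at 16 months. Ndufv1 shows the contrast, with 136.8, 136.4 and 137.0 CPM at 6 months and 149.1, 127.5 and 129.8 CPM at 16 months.

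Related mitochondrial genes were described from 5 lists, and no difference between them and the subunit genes was tested. Of 45 tested assembly factors, which build the complexes without being part of them, 1 was called lower, Coa6 of complex IV assembly (log2 fold change -0.34), and the median was -0.04. Subunits and carriers outside the naming rule, such as cytochrome c and the adenine nucleotide carriers, had a median of -0.04 over 10 genes with 0 called, from Usmg5, a small ATP synthase subunit (-0.32), to Cyc1, cytochrome c1 (0.04). The 13 enzymes of the tricarboxylic acid cycle had a median of 0.03 with 0 called. The older samples lay all above the younger for 5 of them and all below for 0, against 12.2% and 11.5% of all tested genes. Import and outer membrane genes (14, median -0.03) and regulators of mitochondrial gene expression such as Ppargc1a and Tfam (13, median 0.07) also had 0 called. With GC and length offsets the medians were -0.002 for assembly factors, -0.04 for subunits and carriers outside the naming rule, 0.06 for the tricarboxylic acid cycle, -0.02 for import and outer membrane genes and 0.06 for regulators, beside -0.04 for the subunit genes. Then 2 genes of the tricarboxylic acid cycle and 1 regulator were called higher, 1 assembly factor higher and 2 lower, and 2 of the subunits and carriers lower. Over all tested genes, 7.37% were called higher and 6.96% lower with the same offsets.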

How the data were processed

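Polyadenylated RNA of the 6 samples was sequenced in pairs. Per the study's methods, the authors trimmed reads with fastq-mcf, aligned them to mm10 with STAR and counted them per Ensembl gene with HTSeq, whose summary lines the files carry; the submitters' processing notes name CASAVA 1.8.2, STAR 2.3.0e and featureCounts 1.5.0-p1. The deposited values are raw counts per gene. Ensembl release and strand setting are not given in the sources used here. Counting drops reads with several alignments, so transcripts with near-identical copies elsewhere in the genome are measured by their unique part.

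Identifiers were matched to GENCODE annotation of GRCm38 (36602 of 38355 genes). Counts were tested with edgeR 4.0.16 in R 4.3.3 (TMM, filterByExpr, quasi-likelihood test, Benjamini-Hochberg over 17120 genes at 0.05), with checks on simulated data. CPM are after TMM, with a prior count of 2 on the log2 scale. Levels per kilobase use the principal transcript. Near-identical stretches came from blastn 2.17.0 and figures from matplotlib 3.10.9. Alternatives were other normalizations and filters, DESeq2 1.42.0, a replicate block, offsets for GC content and length, and each sample left out. Offsets for GC or length alone were added after seeing the data. The SE of a log2 fold change comes from the quasi-likelihood fit and includes variation among samples. The floor of 3 counts covers counting error only.

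Named genes are the called genes, the extremes of each complex, isoform partners, 15 core subunits and genes failing the filter, with exceptions stated in the text or called only with offsets; 1 gene is counted in the totals but not reported here. Members, lists and rules were chosen with earlier results of these data known.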

Additional observations from a re-analysis of the deposited data

How the results depend on the processing

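The number of subunit genes called lower, 4 by the edgeR quasi-likelihood test, was 10 without the filter on low counts (1.29% of all genes called lower), 12 with DESeq2 (0.802%), 13 with GC and length offsets (6.96%), 33 with GC offsets alone (7.58%) and 0 with length offsets alone (0.8%), and from 0 to 21 when 1 sample was left out (0.133% to 6.4%). It stayed within 1.5 times of 4 with the other normalizations and with at least 10 counts in every sample. Genes called higher numbered 2 with GC and length offsets. The median log2 fold change over the 82 genes was -0.123 with upper quartile normalization, -0.0432 with both offsets, -0.0421 with length offsets, and -0.131 to -0.0987 when 1 sample was left out. The complex medians with both offsets were -0.0534 (I), -0.00974 (III), -0.0385 (IV) and -0.0604 (V), and with length offsets alone -0.0553 (I), 0.0357 (II), -0.0419 (III), -0.0383 (IV) and -0.0475 (V). Leaving out 1 sample gave -0.146 to -0.107 for complex I, -0.157 to -0.108 for complex IV and -0.146 to -0.0819 for complex V.

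The replicate numbers are shared by the ages, and deviations of same-numbered samples correlated at r = 0.18, 0.096 and 0.035. These values were low, and the main test used no pairing. Of the 6 samples, 5 correlated best with their own number, and whether the numbers mark a shared batch was not tested. A replicate block gave 15 genes called lower and 0 higher, with 2.34% of all genes called lower and 2.24% higher. The replicate block with GC and length offsets gave 18 lower and 5 higher, with 8.98% of all genes lower and 10.1% higher, and medians of -0.0432 over all, -0.0512 (I), -0.00945 (III), -0.0379 (IV) and -0.0618 (V).

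Values near 0 changed sign. With both offsets, the replicate block with both offsets, and length offsets alone, Cox4i2 was at 0.019, 0.021 and 0.031, Cox6a1 at 0.061, 0.060 and 0.091, and Cox8a at 0.088, 0.087 and 0.11. With upper quartile normalization and without the filter Ndufs1 was at -0.013 and -0.002. Ndufs1 was at -0.005 and Ndufv1 at 0.019 with length offsets. Without 1 sample the ranges crossed 0 for Atp5g2 (-0.152 to 0.404), Cox4i2 (-0.165 to 0.040), Cox6a1 (-0.137 to 0.063), Cox7a1 (-0.009 to 0.276), Cox8a (-0.039 to 0.030), Ndufa4l2 (-0.003 to 0.249), Ndufs1 (-0.027 to 0.038), Ndufs7 (-0.192 to 0.014), Ndufv1 (-0.088 to 0.028) and Uqcrc1 (-0.001 to 0.151). The cause of these changes was not tested.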
